A study of Mus musculus with 16 samples.

Results

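The genes described here encode proteins of neurotransmitter release and of the neuronal cytoskeleton. They were taken by name as a list of 45 mouse genes, and no measured value entered the rule. All 45 were found among the 23354 gene symbols with a value in every library. A gene was tested where it reached a CPM (counts scaled to library size) of 1 in at least 4 of the 16 libraries, which 35 of the 45 members and 16650 genes in all did. The list itself was drawn up with earlier results of these data known, so the share of members that moved is a description of the list and no independent evidence.

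At a synapse, vesicles filled with transmitter dock at the active zone, are primed by Unc13 proteins and fuse through SNARE proteins when a synaptotagmin senses calcium. Neurexins and neuroligins hold the contact together across the cleft, and stathmins, tubulins, neurofilaments and Gap43 shape the growth cone and axon. Many cells that are not neurons use some of the same proteins for secretion and transport. In such cells a number of neuronal genes, Syn1 and Snap25 among them, are known as targets of the repressor REST, which binds the RE1 element and recruits histone deacetylases.

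RNA came from 16 whole tumours, 1 per mouse, of AU565(pv), a HER2-positive line of human breast cancer, implanted in the mammary fat pad of immunodeficient SCID hosts without functional T or B cells. The 4 groups of 4 mice received panobinostat with trastuzumab (the combination), panobinostat, trastuzumab or vehicle, all by intraperitoneal injection. Panobinostat, an inhibitor of histone deacetylases, was given at 15 mg/kg on days 0 and 1, and mice without it received D5W, its vehicle, on those days. Trastuzumab, an antibody against HER2, was given once at 10 mg/kg, and mice without it received PBS. The labels disagree on whether trastuzumab was given on day 0 or day 1. Treatment began at a tumour size of 20 to 25 mm2 and tumours were taken on day 2. Mouse age was not given in the labels. The mice are numbered 2, 11, 16 and 22 in the combination, 4, 7, 8 and 13 in panobinostat, 12, 15, 20 and 24 in trastuzumab and 3, 6, 21 and 29 in vehicle tumours, and lists of 4 values follow those numbers.

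Mouse genes were counted in tumours of human cells, and how many human reads those counts hold was not measured. Total counts were between 4848244 and 8140782 per library, with means of 6472968 ± 1281303 in the combination, 5820239 ± 385315 in panobinostat, 6036206 ± 1041244 in trastuzumab and 5999016 ± 793452 in vehicle tumours (SD, n = 4 each). Of the 7 neuronal markers in the table Elavl3, Elavl4 and Dcx were near 0, with 9, 3 and 20 counts over all 16 libraries. Rbfox3 had 70 counts, or a mean of 0.734 CPM, and was seen in every library. Uchl1 averaged 1.32 CPM, Gad1 3.35 CPM and Slc17a7 9.02 CPM. The summed level of the 7 markers was 9.47 to 20.2 CPM in the combination and 15.1 to 20.3 in panobinostat tumours. It was 12.2 to 20.0 CPM in trastuzumab and 6.43 to 17.1 in vehicle tumours. Markers of Schwann cells were higher, at a sum of 50.6 to 69.5 CPM in the combination, 46.8 to 66.7 in panobinostat, 40.8 to 68.3 in trastuzumab and 44.1 to 59.9 in vehicle tumours. In whole tumours a larger number of cells of a type and more RNA per cell cannot be told apart.

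Panobinostat was tested by comparing the 8 tumours that received it (combination and panobinostat) with the 8 that did not (trastuzumab and vehicle). Synaptotagmin 5 (Syt5), Snap25, Nrxn2, Sez6l2, synaptophysin (Syp), Stmn2, synapsin 1 (Syn1) and Unc13a rose, by 1.67-fold to 2.73-fold, and no member fell. They are 1 or 2 genes each of the vesicle, the synaptotagmins, the fusion and priming machinery, the surface of the synapse and the growth cone. The other 27 tested members were not called. A gene was called at an adjusted p under 0.05 (edgeR quasi-likelihood F test, Benjamini-Hochberg over all genes tested). The 8 calls are 22.9% of the tested members, where 2.82% of all genes tested were called, 1.93% higher and 0.889% lower. The median log2 change was 0.25 over the 35 tested members and -0.0 over all genes, and 28 of the 35 were positive. At an unadjusted p under 0.05, 15 members were higher and 1 lower, against 7.48% and 5.92% of all genes. Syt5 and Gap43 reached the filter only through panobinostat-treated libraries. Of the other 33 tested members 7 were called higher, beside 1.89% of the 16054 genes that reached 1 CPM in at least 4 of the 8 libraries without panobinostat.

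**Figure D1:**
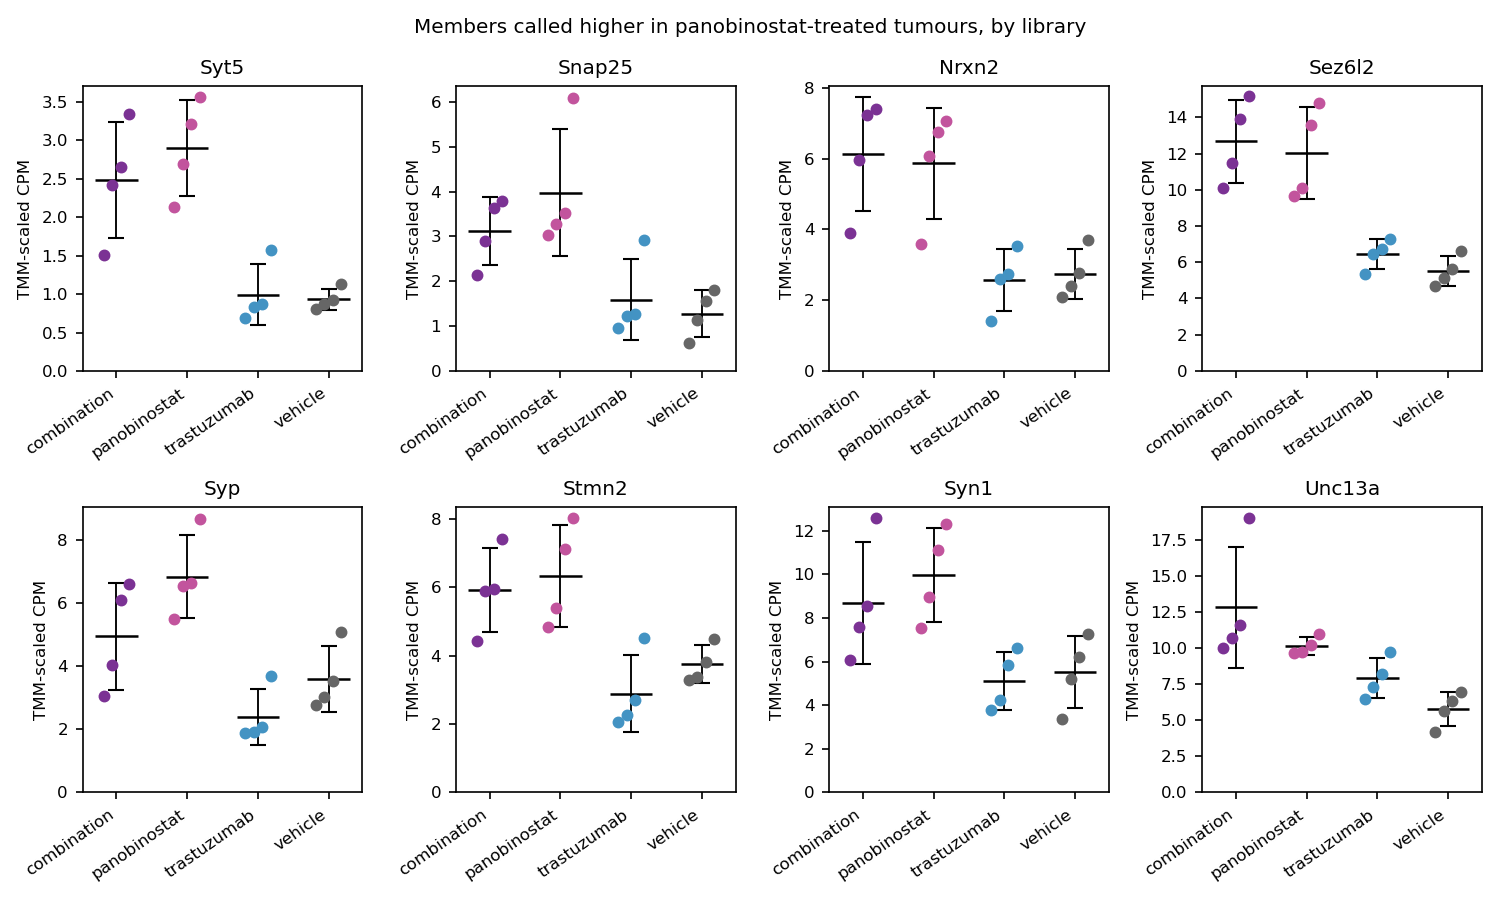
TMM-scaled CPM of the 8 members called higher in panobinostat-treated tumours; each point is 1 library, sorted by value within its group, and the line and bars give the mean and SD of 4 libraries. Sez6l2 was at 9.65 CPM or more in every panobinostat-treated library and at 7.3 CPM or less in every other library, and the other 7 genes overlapped by 1 or 2 panobinostat-treated libraries.

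Syt5, a synaptotagmin of synaptic and dense-core vesicles, had 2.42, 3.34, 2.66 and 1.51 CPM in combination and 3.56, 2.69, 3.22 and 2.13 CPM in panobinostat tumours. It had 0.685, 1.58, 0.834 and 0.869 CPM in trastuzumab and 0.803, 1.13, 0.866 and 0.925 CPM in vehicle tumours. All but 1 of the panobinostat-treated libraries lay above every other library, the exception being combination 22. Syt5 averaged 2.69 ± 0.678 CPM in the 8 panobinostat-treated tumours and 0.961 ± 0.28 CPM in the other 8 (SD), a log2 change of 1.45 (standard error, SE, 0.23; edgeR adjusted p = 0.00214). The other 5 tested synaptotagmins were not called. Syt1, the fast calcium sensor of synaptic vesicles, had 2.66 CPM in panobinostat-treated and 2.25 CPM in other tumours. Syt3 had 0.38 (edgeR adjusted p = 0.176) and Syt11, which regulates vesicle uptake and does not bind calcium, 0.29 (edgeR adjusted p = 0.201). Syt7, a slow, high-affinity sensor also used by lysosomes, had 0.07 (edgeR adjusted p = 0.931). Syt12 was the member with the most negative change, at 2.42 CPM in panobinostat-treated and 3.81 CPM in other tumours (log2 change -0.59, SE 0.25, edgeR adjusted p = 0.288).

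Of the SNARE machinery, Snap25, which forms the SNARE bundle with syntaxin 1 and Vamp2, had 2.9, 3.63, 3.8 and 2.15 CPM in combination and 3.02, 3.53, 6.08 and 3.27 CPM in panobinostat tumours. The other groups held 0.959, 1.26, 2.92 and 1.22 CPM in trastuzumab and 1.81, 1.13, 1.56 and 0.616 CPM in vehicle tumours. Panobinostat 8 and trastuzumab 20 were each the high library of their group, and combination 2 and 22 lay below trastuzumab 20. The means were 3.55 ± 1.15 CPM in panobinostat-treated and 1.43 ± 0.699 CPM in other tumours (SD, n = 8 each), and the log2 change was 1.33 (SE 0.27, edgeR adjusted p = 0.0102). The partners of Snap25 in the bundle were not called. Vamp2 averaged 60.5 ± 3.82 CPM in panobinostat-treated and 60.1 ± 4.04 CPM in other tumours, a log2 change of 0.01 with an approximate 95% interval of -0.11 to 0.13. Stx1a averaged 7.28 CPM on both sides, with an interval of -0.28 to 0.27, and Nsf, the ATPase that takes used bundles apart, had an interval of -0.14 to 0.13. Vamp1 (0.14) and Napb (-0.09), an adaptor of Nsf, were not called either. Cplx2, a complexin that clamps the bundle, averaged 17.7 CPM in panobinostat-treated and 12.6 CPM in other tumours, with a log2 change of 0.49 (SE 0.14) and an edgeR adjusted p of 0.0742, and was called by DESeq2.

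Both of the called vesicle proteins are used as general markers of synaptic vesicles. Syp had 6.61, 6.09, 3.04 and 4.04 CPM in combination, 5.51, 6.55, 6.62 and 8.67 CPM in panobinostat, 3.7, 2.06, 1.88 and 1.91 CPM in trastuzumab and 3.01, 3.54, 2.77 and 5.09 CPM in vehicle tumours. Every panobinostat tumour was above every trastuzumab and vehicle tumour, while combination 16 and 22 lay inside the vehicle range. Syp averaged 5.89 ± 1.73 CPM in panobinostat-treated and 2.99 ± 1.1 CPM in other tumours, a log2 change of 0.97 (SE 0.21, edgeR adjusted p = 0.0146). Syn1, which tethers vesicles in their reserve pool, had 7.57, 8.56, 12.6 and 6.06 CPM in combination, 12.3, 11.1, 8.94 and 7.52 CPM in panobinostat, 4.25, 3.79, 5.83 and 6.6 CPM in trastuzumab and 6.22, 3.38, 5.2 and 7.24 CPM in vehicle tumours. Only combination 22 of the panobinostat-treated libraries lay below the highest of the others, vehicle 29. Its log2 change was 0.81 (SE 0.19, edgeR adjusted p = 0.0271), and this call was lost in 6 of the 16 fits that left out 1 library, with an adjusted p of up to 0.0656. Without panobinostat 4, panobinostat 7, trastuzumab 12, trastuzumab 15, vehicle 6 or vehicle 21 it was not called. Syn2, its paralogue, had a log2 change of 0.03, and Rab3a, a GTPase of secretory vesicles, had 0.24, and neither was called.

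In the active zone, Unc13a had 9.99, 11.6, 19.0 and 10.7 CPM in combination, 11, 9.75, 10.2 and 9.65 CPM in panobinostat, 8.22, 6.48, 7.29 and 9.73 CPM in trastuzumab and 4.21, 5.63, 6.93 and 6.32 CPM in vehicle tumours. Trastuzumab 24 reached the level of the panobinostat group, and combination 16 stood above the rest. The means were 11.5 ± 3.11 CPM in panobinostat-treated and 6.85 ± 1.66 CPM in other tumours (SD, n = 8 each), and the log2 change was 0.74 (SE 0.15, edgeR adjusted p = 0.0102). Its paralogue Unc13b, the form used by many secretory cells outside the brain, averaged 140 CPM in panobinostat-treated and 126 CPM in other tumours and was not called (log2 change 0.15, edgeR adjusted p = 0.809). The scaffold proteins of the active zone had changes of 0.65 for Rims2 (SE 0.25, edgeR adjusted p = 0.225), 0.52 for Pclo (edgeR adjusted p = 0.311) and 0.25 for Bsn (edgeR adjusted p = 0.686), none of them called. The endocytic members Dnm1, which pinches off vesicles, and Snap91, a clathrin adaptor, were not called, with changes of -0.15 and -0.08.

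The member with the smallest adjusted p was Sez6l2, a surface protein of neurons related to the seizure gene product Sez6. Its levels were 13.9, 11.5, 15.2 and 10.1 CPM in combination, 14.8, 10.1, 9.65 and 13.6 CPM in panobinostat, 6.71, 5.37, 6.46 and 7.3 CPM in trastuzumab and 5.62, 5.15, 4.68 and 6.63 CPM in vehicle tumours. All 8 panobinostat-treated libraries lay above all 8 others, and Sez6l2 was the only tested member whose 2 sides did not overlap, where 0.529% of all genes were higher without overlap. The means were 12.3 ± 2.27 CPM in panobinostat-treated and 5.99 ± 0.911 CPM in other tumours, a log2 change of 1.04 (SE 0.13, edgeR adjusted p = 0.000663). Nrxn2, a presynaptic adhesion protein that binds neuroligins, had 7.41, 5.95, 7.23 and 3.91 CPM in combination, 6.76, 7.06, 6.08 and 3.6 CPM in panobinostat, 2.74, 1.42, 3.54 and 2.61 CPM in trastuzumab and 2.41, 2.09, 2.77 and 3.7 CPM in vehicle tumours. Combination 22 and panobinostat 13 were low in their groups, and panobinostat 13 was just under vehicle 29. Its log2 change was 1.16 (SE 0.21, edgeR adjusted p = 0.00503). The other adhesion members were not called, at 0.59 for Nlgn1 (edgeR adjusted p = 0.346), 0.40 for Nrxn3 (0.584), 0.13 for Sez6 (0.872), 0.03 for Nlgn2 (0.955) and -0.47 for Nlgn3 (0.379).

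Among cytoskeleton and growth cone genes, Stmn2, a stathmin that binds tubulin in growing axons, had 7.41, 5.95, 5.9 and 4.42 CPM in combination and 7.11, 5.38, 4.83 and 8.02 CPM in panobinostat tumours. It had 4.52, 2.06, 2.71 and 2.26 CPM in trastuzumab and 3.81, 4.5, 3.29 and 3.39 CPM in vehicle tumours, so that only combination 22 lay, by a small margin, under the highest of these. The log2 change was 0.88 (SE 0.18, edgeR adjusted p = 0.0126). Stmn3, a related stathmin, averaged 13.8 CPM in panobinostat-treated and 10.1 CPM in other tumours and was not called (log2 change 0.45, SE 0.14, edgeR adjusted p = 0.132). Tubb3, the neuronal beta-tubulin, averaged 308 ± 54.3 CPM in panobinostat-treated and 269 ± 41.4 CPM in other tumours, with an interval of -0.03 to 0.42 around a log2 change of 0.19 (edgeR adjusted p = 0.526). Gap43, a growth cone protein, had 0.54 (edgeR adjusted p = 0.405).

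Counted by role, 1 of 6 tested synaptotagmins was called higher. This role is labelled calcium sensor as a name only, since not every synaptotagmin binds calcium, Syt11 for example. Also called higher were 1 of 7 SNARE genes, 2 of 4 vesicle proteins, 1 of 5 active zone genes, 2 of 7 adhesion and surface genes and 1 of 4 cytoskeleton genes. Neither of 2 endocytosis genes was called. The median log2 change was 0.52 for the vesicle proteins and for the active zone genes and 0.49 for the cytoskeleton genes. For the adhesion genes it was 0.40 and for the synaptotagmins 0.27. It was 0.01 for the SNARE genes and -0.11 for the endocytosis genes. Levels are compared between genes as CPM per kilobase of exon. On that scale the highest tested members were Tubb3 at 154, Nlgn2 at 19.4, Vamp2 at 15.8 and Dnm1 at 13.6. The called members lay between 0.313 for Nrxn2 and 2.22 for Syn1, which ranked 14 of 35.

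**Figure D2:**
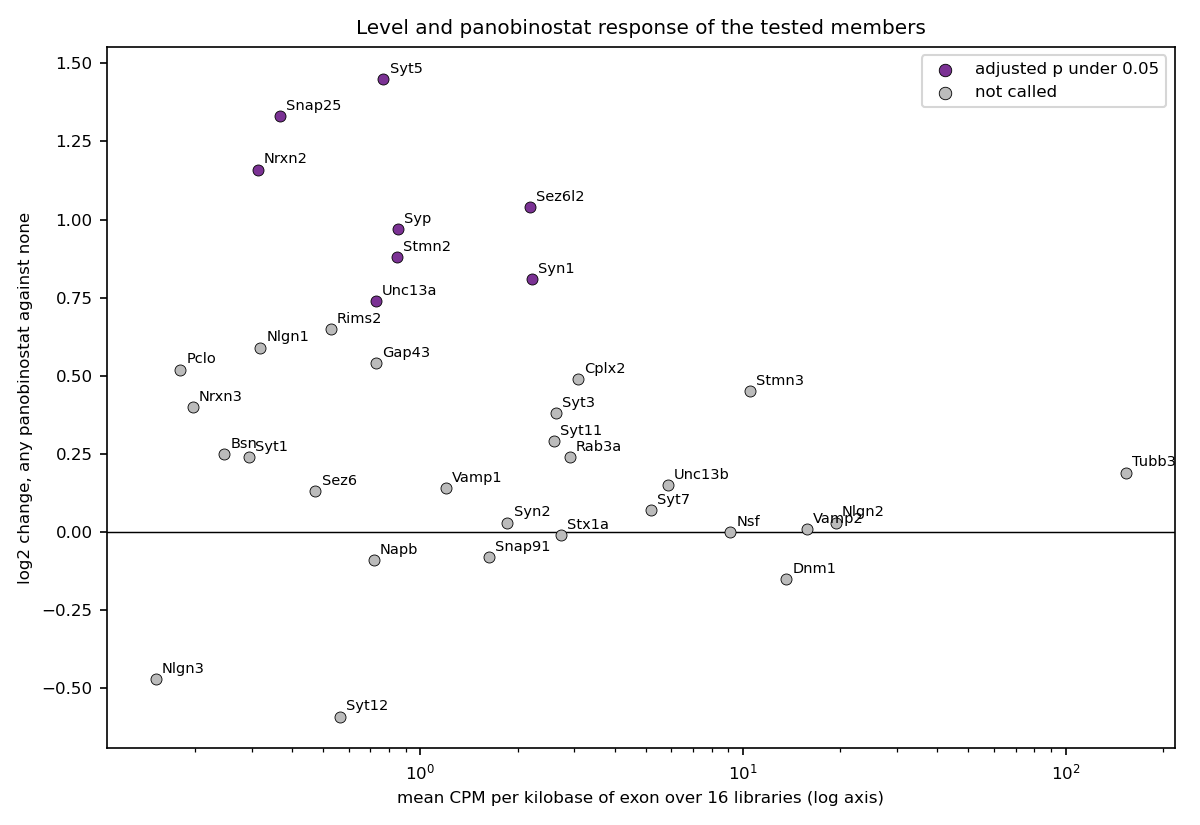
Log2 change for any panobinostat against none (vertical axis) against the mean level in CPM per kilobase of exon over 16 libraries (horizontal log axis) of the 35 tested members; coloured points were called at an adjusted p under 0.05. The 8 called members lie at or below 2.22 CPM per kilobase, and Tubb3 stands at 154 with a change of 0.19.

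The 10 members under the filter were Syt4, Syt13, Syn3, Rims1, Cplx1, Sv2a, Sv2b, Rab3c, Nefl and Nefm. The neurofilament genes Nefl and Nefm had 11 and 10 counts over all 16 libraries, and Cplx1 had 3. Sv2a, a vesicle glycoprotein, reached 1 CPM in 3 libraries, just outside the filter, as Gap43 with 9 and Syt5 with 10 were inside it. Sv2a had 53 counts in the 8 panobinostat-treated libraries and 24 in the other 8, Syt13 42 and 13, and Sv2b 10 and 1. Syt4 had 19 and 14, Rims1 10 and 6, Nefm 6 and 4, Nefl 6 and 5 and Syn3 24 and 23. Rab3c, with 23 and 30, and Cplx1, with 1 and 2, had fewer counts in the panobinostat-treated libraries. With no filter, none of the 10 was called, and the smallest edgeR adjusted p was 0.137, for Sv2a.

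Panobinostat against vehicle and the combination against trastuzumab share no library, so each gives its own value of the panobinostat response. Both comparisons come from 1 fit of all 16 libraries with a shared estimate of the spread, so their adjusted p-values are not independent. Only Sez6l2 was called in either, as higher. In panobinostat against vehicle 0.18% of all genes were called, 0.132% higher and 0.048% lower, and in the combination against trastuzumab 0.601% were called, 0.444% higher and 0.156% lower. Leaving out 1 library moved the calls over all genes from 30 to between 3 and 74 in the first comparison and from 100 to between 3 and 170 in the second, and these shares move with it. Its log2 change was 1.12 in panobinostat against vehicle (SE 0.19, edgeR adjusted p = 0.0381) and 0.96 in the combination against trastuzumab (SE 0.19, edgeR adjusted p = 0.0345). The next members were Syt5, with 1.61 (edgeR adjusted p = 0.0547) and 1.29 (edgeR adjusted p = 0.0903), and Nrxn2, with 1.08 (edgeR adjusted p = 0.184) and 1.25 (edgeR adjusted p = 0.0744). Snap25 had 1.65 and 1.01, Syp 0.91 and 1.02, Stmn2 0.75 and 1.00, Syn1 0.85 and 0.76 and Unc13a 0.80 and 0.68, in that order of comparisons, with none of these called. Of the 35 tested members 24, or 68.6%, were positive in both comparisons and 11.4% negative in both, beside 30.7% and 29.4% of all genes. Sez6l2 was not called with limma voom in either comparison. In the combination against trastuzumab it was also not called in a fit of those 2 groups alone or with the luminal covariate. Over all 8 alternatives that do not leave out a single library its log2 change was 1.10 to 1.15 in the first comparison and 0.93 to 1.01 in the second. It was called in 7 and in 10 of the 16 fits without 1 library, with adjusted p-values of up to 0.134 without vehicle 6 and up to 0.125 without trastuzumab 20. In panobinostat against vehicle its call was also lost without trastuzumab 15, a library outside that comparison.

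**Figure D3:**
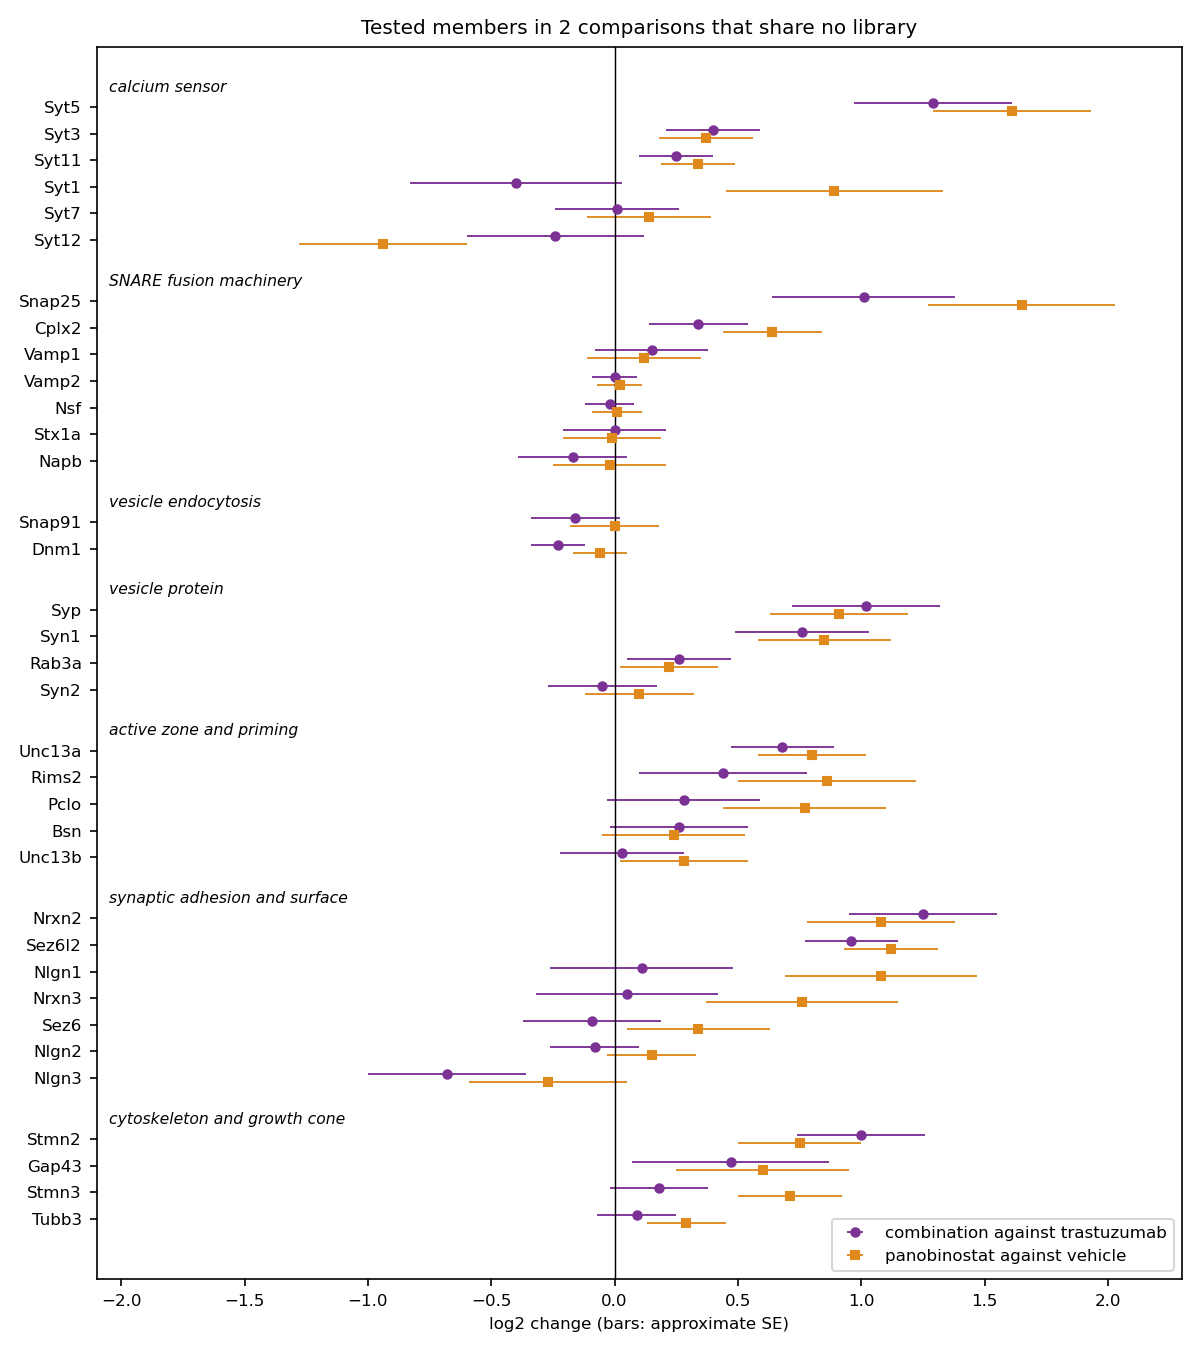
Log2 change of the 35 tested members, grouped by role, in the combination against trastuzumab (circles) and in panobinostat against vehicle (squares), with the approximate SE as bars. Of the 35 members 24 lie right of 0 in both comparisons, and Syt1 lies at 0.89 in panobinostat against vehicle and at -0.40 in the combination against trastuzumab.

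In the combination against vehicle, which shares its libraries with the comparisons above, 3 members were called higher and none lower, where 2.02% of all genes were called, 1.57% higher and 0.456% lower. These were Sez6l2 (log2 change 1.19, edgeR adjusted p = 0.00338), Unc13a (1.13, edgeR adjusted p = 0.008) and Syt5 (1.38, edgeR adjusted p = 0.0357). Nrxn2, at 1.13, missed the threshold with an edgeR adjusted p of 0.0568, as did Snap25 at 1.29 with 0.103. Combination tumours averaged 12.7 ± 2.31 CPM of Sez6l2 and vehicle tumours 5.52 ± 0.834 CPM, and for Unc13a 12.8 ± 4.17 and 5.77 ± 1.17 CPM (SD, n = 4 each). The call of Syt5 was lost in 7 of 16 fits without 1 library, with an adjusted p of up to 0.129 without combination 11, and with DESeq2, limma voom, the compared groups alone and the luminal covariate. Unc13a lost its call in a fit of the 2 groups alone, with an edgeR adjusted p of 0.0606. Without vehicle 3 Syt12, at a log2 change of -1.32, was called lower (edgeR adjusted p = 0.0331), where it had -1.08 with all libraries (edgeR adjusted p = 0.127).

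No member was called for trastuzumab. In any trastuzumab against none, 0.138% of all genes (23) were called, a count of 2 to 29 without 1 library, 62 with DESeq2 and 5 with the luminal covariate. The smallest edgeR adjusted p of a member was 0.683, for Unc13a. Unc13a averaged 10.4 CPM in the 8 tumours with trastuzumab and 7.96 CPM in the 8 without it, a log2 change of 0.39. Trastuzumab against vehicle, the combination against panobinostat and the interaction of the drugs called no gene at all, so 0.0% were called in each. At an unadjusted p under 0.05 these gave 591, 749 and 313 genes, and DESeq2 called 10, 14 and 0. For Sez6l2 the log2 change with trastuzumab was 0.15, with an interval of -0.12 to 0.41. The interaction, the response to panobinostat with trastuzumab minus that without it, was negative in 26 of the 35 tested members, with a median of -0.15 over members and -0.01 over all genes. The most negative was Syt1 at -1.29 (approximate interval -2.50 to -0.07, edgeR unadjusted p = 0.053, adjusted p = 1.0), with 0.89 in panobinostat against vehicle and -0.40 in the combination against trastuzumab. Syt1 was low in vehicle 6, at 0.322 CPM (the others at 1.7 to 2.43), and in combination 22, at 0.757 CPM (1.74 to 3.99). A low library in either of these groups makes the interaction more negative. How far these libraries account for the shift over the members was not tested. The interaction was -0.16 for Sez6l2 (interval -0.68 to 0.36), -0.31 for Syt5 (-1.23 to 0.61) and 0.16 for Nrxn2 (-0.66 to 0.99). Differences within these intervals are not excluded by the data.

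Several called genes share exons with a neighbour in the annotation, which matters because the library kit does not mark strand. Syt5 (chr7:4539765-4547541, minus strand of GRCm38), Snap25 (chr2:136713453-136782428, plus) and Stmn2 (chr3:8509360-8561606, plus) overlap no exon of another gene. Syn1 (chrX:20860511-20921004, minus) overlaps Araf on the other strand, and Araf had a log2 change of 0.10 (SE 0.05, edgeR adjusted p = 0.494). Unc13a (chr8:71624417-71671757, minus) overlaps Colgalt1, which had -0.11 (SE 0.06, edgeR adjusted p = 0.514). Sez6l2 (chr7:126950563-126970606, plus), Syp (chrX:7638471-7653256, plus) and Nrxn2 (chr19:6418731-6544169, plus) overlap the predicted genes Gm21984, Gm14703 and Gm14964, each at a mean of 0.204 CPM or less on either side. Nrxn2 also overlaps Slc22a12, which was not analysed here.

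The promoter of Syn1 is shown because it was the only member window close to the RE1 element. Windows of 300 bases, 250 before and 50 after a start site, were taken from RefSeq on GRCm38.p6, and 28 of the 45 members had one, Syn1, Syp and Unc13a among the called members. The letters searched on both strands were the paired blocks CAGCACC and GGACAG with any 2 bases between them. Capitals mark the best match, which has 1 mismatch in the 13 fixed letters and starts at base -230 from the start site.
Syn1 promoter, chrX:20920869-20921168, minus strand: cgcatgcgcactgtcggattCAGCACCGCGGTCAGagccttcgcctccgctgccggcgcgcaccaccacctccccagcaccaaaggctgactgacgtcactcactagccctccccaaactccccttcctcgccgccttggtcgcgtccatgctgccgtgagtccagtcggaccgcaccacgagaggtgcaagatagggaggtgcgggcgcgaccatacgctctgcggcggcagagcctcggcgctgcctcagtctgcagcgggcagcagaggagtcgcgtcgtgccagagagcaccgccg
A match with at most 1 mismatch was found in 0.186% of the 32851 windows of all genes. Rest itself, which encodes the repressor, averaged 31.2 ± 2.16 CPM in panobinostat-treated and 32.9 ± 3.34 CPM in other tumours (log2 change -0.08, SE 0.08, edgeR adjusted p = 0.763). None of the 14 genes of the REST repressor complex was called.

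Other neuronal genes were counted from lists that hold no member. Like the members, these lists were drawn up with earlier results of these data known. Of 23 other presynaptic genes none was called (median log2 change 0.16). Of 23 other genes of the neuronal cytoskeleton and of RNA binding 1 was called, Kif5c, a kinesin motor of neurons, at 10.3 ± 2.62 CPM in panobinostat-treated and 5.54 ± 1.87 CPM in other tumours (log2 change 0.87, SE 0.20, edgeR adjusted p = 0.0261). Of 24 postsynaptic genes 1 was called, the kainate receptor subunit Grik5, at 7.49 ± 1.69 CPM in panobinostat-treated and 4.73 ± 0.993 CPM in other tumours (log2 change 0.65, SE 0.16, edgeR adjusted p = 0.032). These 70 genes together had 2 called higher, or 2.86%, a share near the 1.93% of all genes. None of 30 broadly expressed membrane fusion genes was called (median -0.02).

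**Figure D4:**
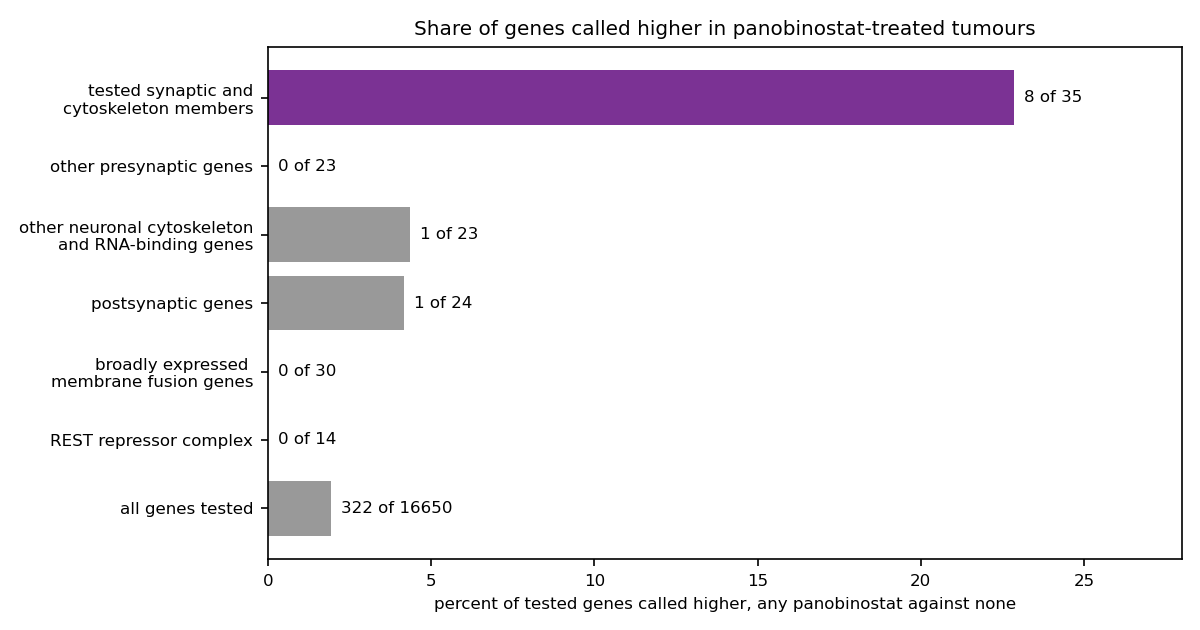
Percent of tested genes called higher for any panobinostat against none (horizontal axis) among the tested members, in 5 other gene lists and over all genes; the numbers at the bars are the genes called of those tested. The tested members stand at 22.9%, the 3 other neuronal lists between 0.0% and 4.35%, and all genes at 1.93%. Members and lists were chosen with earlier results of these data known, so their shares describe the lists and are no independent evidence.

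Markers of other cell types that these whole tumours may contain were read beside these results, and no tested marker was called for any panobinostat against none. The median log2 change was 0.37 for 3 tested neuronal markers, 0.03 for 8 of Schwann cells, 0.69 for 3 of neuroendocrine cells, -0.29 for 3 of skeletal muscle and 0.34 for 5 of adipocytes. It was -0.02 for 5 markers of macrophages, -0.37 for 5 of fibroblasts, 0.02 for 5 of endothelial cells and 0.13 for 10 luminal genes, which mark epithelial and HER2-type tumour cells. The tumour cells are human, so these mouse genes could mark them only through human reads, whose number was not measured. The 7 neuroendocrine markers summed to 5.71 to 14.4 CPM in the combination, 5.72 to 17.6 in panobinostat, 3.33 to 9.59 in trastuzumab and 5.02 to 10.1 in vehicle tumours. Their part in the rise of the called members was not tested.

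The luminal genes and some of the members were low together in vehicle 6 and in combination 22. Their sum was lowest in vehicle 6, at 623 CPM, where the other vehicle tumours had 770 to 883 CPM, and it was lowest among combination tumours in mouse 22, at 668 CPM. Unc13b was at 58.4 CPM in vehicle 6 and 113 to 152 CPM in the other vehicle tumours, and at 84.8 CPM in combination 22 and 130 to 202 CPM in the other combination tumours. Syt7, Rims2 and Syt1 were lowest in the same pair of libraries. In trastuzumab tumours the luminal genes and Unc13b were not low together. There mouse 12 had the highest luminal sum, at 1040 CPM, and the lowest Unc13b, at 114 CPM. The summed adipocyte markers were the highest of their groups in vehicle 6, at 4170 CPM, and in combination 22, at 4820 CPM. The same held for trastuzumab 12, at 5300 CPM, and panobinostat 13, at 6870 CPM. Each of these libraries had the lowest Unc13b of its group, at 124 CPM in panobinostat 13. Whether the mix of cells, or human reads counted on mouse genes, set these levels was not tested. With the mean log2 CPM of the luminal genes as a covariate, the 8 members called for any panobinostat against none were all called still. They were also called under each of the other alternatives that kept all 16 libraries.

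**Figure D5:**
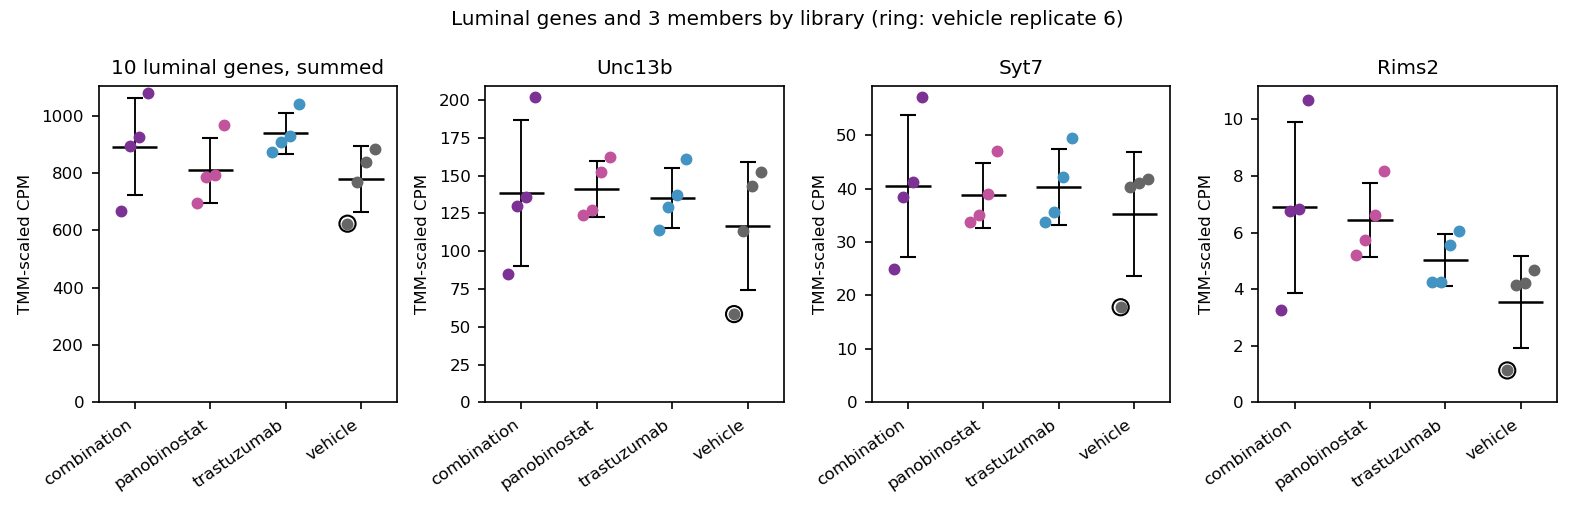
TMM-scaled CPM of 10 luminal genes summed and of Unc13b, Syt7 and Rims2; each point is 1 library, sorted by value within its group, the line and bars give the mean and SD of 4 libraries, and the ring marks vehicle 6. Vehicle 6 is the lowest library in all 4 panels, at 623 CPM for the luminal sum and 58.4, 17.8 and 1.13 CPM for the 3 members.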

How the data were processed

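The authors deposited raw counts of reads for each mouse gene symbol. The submitters' processing notes name CASAVA 1.8.2, TopHat2, HTSeq and mm10. Not given in the sources used here are their settings, the annotation and how human reads were treated. For 1327 of 24681 symbols a dot replaced the value in all 8 panobinostat-treated libraries; these were left out, none is a member, and genes seen only with panobinostat could be missing. This split of the table cannot be told apart from panobinostat.

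Counts were fitted with edgeR 4.0.16 in R 4.3.3 (quasi-likelihood F test, TMM scaling, 1 mean per group over 16 libraries, common biological coefficient of variation 0.184). Genes at 1 CPM in at least 4 libraries were tested, with Benjamini-Hochberg adjustment. CPM are TMM-scaled. The SE, the absolute log2 change over the square root of F, and the 95% intervals, 1.96 SE wide on each side, are approximate. No 2 libraries of a group matched within sampling noise (chi-square over degrees of freedom 4.06 to 34.2). Alternatives used limma 3.58.1 voom, DESeq2 1.42.0, other scalings and filters, the compared groups alone, a luminal covariate and fits without 1 library. On simulated data for any panobinostat against none (16650 genes, 200 changed, 5 sets), 47.4% of genes changed 1.5-fold and 79.2% of those changed 2-fold were recovered, and 6.33% of calls were false. The changed genes were drawn at random from all genes tested, and genes varied independently. Rates for genes at the low counts of the called members were not measured. Promoters are from RefSeq (GRCm38.p6) and gene positions from GENCODE on GRCm38.

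The members, the 14 lists and the tests were chosen with earlier results of these data known. Values per library are given for members called in at least 1 comparison; other members are named by level, filter or role. From each list up to 3 called genes of smallest adjusted p are named, and Rest whatever its value.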

Additional observations from a re-analysis of the deposited data

Results flagged for a closer look

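In 12 of the 140 sets of 4 libraries (35 tested members in 4 groups) 1 library stood apart from the other 3, by Dixon's test at its 95% critical value. Chance alone flags about 1 in 20 such sets. In vehicle tumours, vehicle 6 was low in Syt7 at 17.8 CPM (the others at 40.2 to 41.7), in Vamp2 at 52.6 CPM (59.6 to 60.9) and in Rims2 at 1.13 CPM (4.16 to 4.68). The fits without vehicle 6 kept 7 of the 8 members called for any panobinostat against none, all but Syn1.

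Panobinostat 8 was high in Snap25 at 6.08 CPM (the others at 3.02 to 3.53) and low in Vamp2 at 54.4 CPM (60.7 to 61.2) and in Dnm1 at 63.5 CPM (71.5 to 72.8). Panobinostat 4 was high in Bsn at 4.62 CPM (3.6 to 3.75). Combination 16 was high in Vamp2 at 68.3 CPM (58.8 to 60.3) and low in Syt12 at 1.33 CPM (2.58 to 2.65). Trastuzumab 20 was high in Snap25 at 2.92 CPM (0.959 to 1.26) and in Gap43 at 1.25 CPM (0.521 to 0.632), and trastuzumab 12 was high in Syp at 3.7 CPM (1.88 to 2.06). Snap25 and Syp were called for any panobinostat against none in all 16 fits that left out 1 library, with edgeR adjusted p-values of up to 0.0267 and 0.0377.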

How the results depend on the processing

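Of 304 values of called members under other settings, all 304 kept their direction, 267 kept their call and 37 lost it. For any panobinostat against none, 8 members were called, 9 with DESeq2, which added Cplx2, and 7 to 9 without 1 library. For panobinostat against vehicle 1 member was called, but 2 with total-count scaling, 3 with DESeq2, 0 with limma voom and 0 to 2 without 1 library. For the combination against trastuzumab 1 was called, but 2 with DESeq2, 0 with voom, with the compared groups alone and with the luminal covariate, and 0 to 2 without 1 library. For the combination against vehicle 3 were called, 1 with the compared groups alone and 2 to 4 without 1 library; these were higher, apart from Syt12, called lower without vehicle 3, where Syt5 was not called. In the 4 trastuzumab and interaction comparisons 0 were called in each fit without 1 library. Over all genes, panobinostat against vehicle called 30, but 46 with total-count scaling, 150 with DESeq2, 3 with voom, 64 with the compared groups alone and 8 with the covariate. The combination against trastuzumab called 100, but 225, 11, 6 and 6 with DESeq2, voom, the compared groups alone and the covariate. The combination against vehicle called 337, but 527 with DESeq2, 143 with the compared groups alone and 107 with the covariate. Any trastuzumab against none called 23, but 62 with DESeq2 and 5 with the covariate. Leaving out 1 library gave 3 (without panobinostat 4, 7 or 8, trastuzumab 15 or vehicle 3 or 21) to 74 (without combination 22) genes for panobinostat against vehicle. It gave 3 (without trastuzumab 20) to 170 (without combination 16) for the combination against trastuzumab, 204 (without vehicle 6) to 376 (without combination 16) for the combination against vehicle and 2 (without panobinostat 7 or 13 or trastuzumab 24) to 29 (without trastuzumab 20) for any trastuzumab against none. For any panobinostat against none it gave 327 to 483, beside 470. The cause was not tested. No paired analysis was possible because the mouse numbers differ between all groups. The CPM filter kept 10 members out of the test, with means of 0.0302 to 0.772 CPM and 3 to 77 counts over all libraries. The calls judge differences between group means against the spread between mice.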
